A study of Mus musculus with 43 samples.

Results

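The 30 genes described here are targets of the transcription factor p53 (Trp53), taken by gene symbol from a list of gene names. They were all found among the 52636 genes of a table of mouse colon organoids with 24 libraries and of a table of mouse colon fibroblasts with 19 libraries. Colonoids were grown from adult Vil-cre/ERT2 mice with wild-type Apc (lines M41, M40 and M1), and tumoroids from Vil-cre/ERT2 mice with floxed Apc (lines F11, M3 and M14), in which tamoxifen-activated Cre removed Apc. All of these mice received tamoxifen and carried the Cre, which the Vil1 promoter restricts to intestinal epithelium, and each line came from 1 mouse. Each of the 6 lines was cultured for 6 days with DMSO vehicle (Ve), 4 µM regorafenib (R4), 8 µM regorafenib (R8) or 1 µM 5-fluorouracil (5-FU), which gave 8 groups of 3 libraries. Fibroblasts from the colon of C57BL/6 mice (lines M3, M3(2), M1(2) and M11) were cultured for 7 days with vehicle, 4 µM regorafenib (R4), 1 µM autogramin-2 (A1) or both (R4A1), and 3 of the 4 lines, without M11, also with 10 µM regorafenib (R10). Regorafenib is a multi-kinase inhibitor, 5-FU a pyrimidine analog that blocks thymidylate synthase and is built into RNA and DNA, and autogramin-2 an inhibitor of GramD1A that blocks autophagy.

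p53 is held at a low level by the ubiquitin ligase Mdm2 and accumulates when DNA damage, blocked nucleotide synthesis or ribosomal stress interrupts that control. It then binds DNA as a tetramer and switches on genes that arrest the cell cycle, repair DNA, trigger apoptosis and feed back on p53 itself. In intestinal epithelium, p53 and its targets Cdkn1a and Bbc3 are well known for the response of crypt cells to radiation and cytotoxic drugs.

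Values are given as CP20M, the reads on a gene scaled to 20000000 per library, which are not divided by gene length. Differences were tested with limma on log2(CP20M + 20) among genes with at least 200 CP20M in at least 2 libraries of the table. A gene was called when its Benjamini-Hochberg adjusted p over all genes tested was under 0.05 and it differed at least 1.5-fold. This filter kept 11562 genes in organoids, with 28 of the 30 targets, and 11032 genes in fibroblasts, with all 30. In organoids Fas, a death receptor, lay between 0 and 155 CP20M and Sesn1, a sestrin that restrains mTORC1, between 61 and 177 CP20M, so these genes were not tested there. Between 512600 and 22368143 reads were counted per organoid library and between 7949948 and 12825876 per fibroblast library. Colonoid line M41 at R4 had the fewest, 512600, so that 1 read is worth 39.0 CP20M there, and it stands apart from the 23 other organoid libraries, which hold at least 4371820 reads. Epithelial markers summed to 106355 to 349790 CP20M and fibroblast markers to 12 to 123 CP20M in the organoids. In the fibroblast libraries, fibroblast markers summed to 110998 to 186156 CP20M and epithelial markers to 205 to 1633 CP20M. As these are bulk libraries, fewer cells of a type and less RNA per cell cannot be told apart.

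p53 recognises a half-site of 3 purines, a C, 2 bases that are A or T, a G and 3 pyrimidines, and binds pairs of such half-sites. RefSeq promoter windows (GRCm38.p6, 250 bases before to 50 after a start site) were matched for 22 of the 30 genes, and on either strand an exact half-site was found in 11 of the 22, against 9.55% of 27025 genes. The windows of Pmaip1, Perp, Trp53inp1, Tnfrsf10b, Xpc, Ddb2, Rrm2b and Zmat3 were not matched. An exact pair, with a spacer of at most 13 bases, was found in Cdkn1a, which has half-sites 12 bases apart, and in 0.074% of all genes. The other Cdkn1a window, chr17:29093519-29093818, holds 0 half-sites. The stretches below, each of 60 bases on the strand of its gene, show the exact pair of Cdkn1a and half-sites of some other genes, in capitals. Gtse1, Ckap2, Aen, Ei24, Polk and Sesn1 also hold a half-site and are not shown. In the Ccng1 stretch the capitals span adjoining half-sites with 1 mismatch in all. In the Cdkn1a stretch the lower-case bases right after the last capitals also form, with these capitals, an adjoining pair with 1 mismatch.
Cdkn1a, chr17:29090892-29090951, plus strand: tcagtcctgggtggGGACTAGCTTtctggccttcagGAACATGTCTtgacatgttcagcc
Ccng1, chr11:40755442-40755501, minus strand: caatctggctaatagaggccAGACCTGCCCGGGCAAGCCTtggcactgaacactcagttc
Mdm2, chr10:117710910-117710969, minus strand: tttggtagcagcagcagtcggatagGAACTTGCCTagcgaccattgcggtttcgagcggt
Bax, chr7:45467065-45467124, minus strand: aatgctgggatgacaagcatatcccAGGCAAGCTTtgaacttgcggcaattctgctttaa
Ddit4l, chr3:137623557-137623616, plus strand: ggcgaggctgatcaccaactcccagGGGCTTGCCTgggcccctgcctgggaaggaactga
The CHR element TTTGAA, or TTCAAA on the other strand, was found in 6 of the 22 (27.3%; Ckap2, Bax, Aen, Fas, Ercc5 and Gdf15), against 20.2% of all genes. No match says only that the motif is not in this window.

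In vehicle, the level per kilobase of exons was highest for Ccng1, a cyclin that acts with Mdm2 and protein phosphatase 2A, at 3130 CP20M per kb in colonoids and 2930 in tumoroids. Perp, a membrane protein of desmosomes, was at 2650 CP20M per kb in colonoids, rank 2, and at 1890 in tumoroids, rank 4. Bax stood at 2060 and 2100 CP20M per kb, Phlda3 at 2060 and 1950, and Cdkn1a at 1500 and 1480. The 2 least abundant were the untested Fas and Sesn1, and among tested genes Rrm2b was lowest in colonoids (32.8 CP20M per kb). In fibroblasts, whose table was normalized separately so that no test was made, Ccng1 was also first at 6640 CP20M per kb, while Perp stood at 75.6 CP20M per kb, rank 28 of the 30. Between vehicle tumoroids and colonoids limma called 0 of 28 targets, against 2.06% of all genes. At an unadjusted p under 0.05 there were 7, beside 1920 of all 11562 genes, and edgeR also called 0. The smallest adjusted p was that of Aen, an exonuclease that cuts DNA in apoptosis, which was 0.67 higher in tumoroids on the log2 scale (SE 0.183, adjusted p = 0.0593). Without the M41 library at R4, limma called 3 of 28, Aen and Eda2r as higher in tumoroids and Btg2 as lower. That fit called 452 genes as higher and 333 as lower, of 11526.

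The comparison of 5-FU with vehicle asks how the targets stood after a cytotoxic drug. Over both genotypes the fitted log2 fold change was above 0 for 27 of the 28 targets tested, with a median of 0.48, while 48.9% of all genes were above 0, with a median of −0.01. The exception was Gdf15. Called as higher were 2 of 28 (7.14%), Btg2 and Ercc5, against 2.35% of all genes in either direction. An unadjusted p under 0.05 was reached by 14 of 28 targets and by 1817 of all 11562 genes. Because the libraries of a line come from the same mouse, the fit was repeated with line as a block. It called 6 of 28, adding Gtse1, Pidd1, Ddit4l and Psrc1 (5.05% of all genes). With the block and without the M41 library at R4, 8 of 28 were called, adding Ccng1 and Trp53inp1 (7.03% of all genes). The 2 calls of the fit without a block rest on single lines and libraries, as neither was made without line M41, M1 or M3 or without the vehicle library of M41. Btg2 was also not called without M40 or F11, nor Ercc5 without M14, and over the lines left out the adjusted p reached 0.207 for Btg2 and 0.188 for Ercc5.

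Compared with the vehicle library of the same line, the median change of the 28 targets was 0.67 in M41, 0.41 in M40 and 0.68 in M1 among colonoids. In tumoroids it was 0.34 in F11, 0.53 in M3 and 0.32 in M14, all on the log2 scale. The corresponding medians over all genes tested lay between −0.03 and 0.07, so the median of the targets was above that of all genes in each of the 6 lines. In all 6 lines 16 of 28 targets were higher with 5-FU than in vehicle (14.2% of all genes), and 0 of 28 were lower in all 6 (12.2% of all genes). The targets were measured in the same libraries and are not independent of each other.

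**Figure D1:**
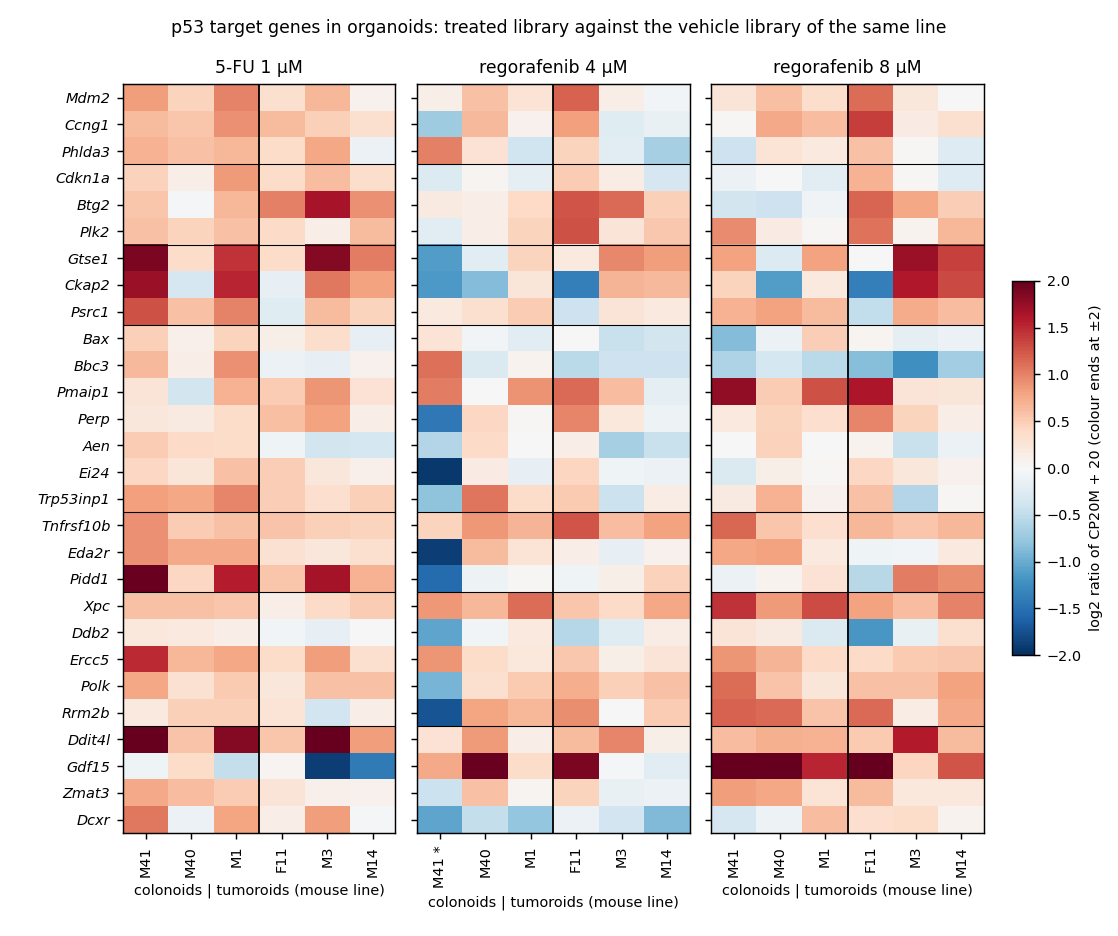
Log2 ratio of CP20M + 20 in each treated organoid library to the vehicle library of the same line, for the 28 targets tested (rows, grouped by role) in 3 colonoid and 3 tumoroid lines (columns), with 5-FU, R4 and R8 in separate panels. Red marks higher and blue lower values, and the asterisk marks the M41 library at R4 with 512600 reads. With 5-FU most cells are red in every line, and the lowest are Gdf15 at −1.88 in M3 and −1.41 in M14. Blue cells also include Aen in the 3 tumoroid lines.

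Among the brakes and feedback genes, Mdm2 stood at 4006, 2874 and 3801 CP20M in vehicle in colonoid lines M41, M40 and M1 and at 7195, 3916 and 7586 CP20M with 5-FU. In tumoroid lines F11, M3 and M14 it stood at 3422, 2911 and 4456 CP20M in vehicle and at 4288, 4605 and 4756 CP20M with 5-FU. Each line was higher with 5-FU, M14 by the least, and the vehicle and 5-FU libraries overlapped in both genotypes. Fitted over colonoids and tumoroids together, Mdm2 had a log2 difference of 0.56 (SE 0.212, adjusted p = 0.178, and 0.056 with the block). Ccng1 went from 13259, 8847 and 10836 CP20M to 20681, 13056 and 20414 CP20M in colonoids. In tumoroids it went from 9379, 11409 and 10086 CP20M to 14574, 15827 and 12615 CP20M. All 5-FU tumoroid libraries lay above all vehicle tumoroid libraries, while the colonoids overlapped by M40. Its log2 fold change was 0.59 (SE 0.195, adjusted p = 0.111), and it was called with the block and without the M41 library at R4 (adjusted p = 0.0182). Phlda3, which binds membrane lipids and holds back Akt, was at 0.49 (SE 0.265, adjusted p = 0.39) and was higher in 5 of 6 lines.

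The cell cycle arrest genes were led by Btg2, an antiproliferative partner of the mRNA deadenylase. Btg2 was at 3196, 3224 and 2339 CP20M in vehicle colonoids and at 4689, 3155 and 3722 CP20M with 5-FU. In tumoroids it was at 1338, 1161 and 2529 CP20M in vehicle and at 2701, 3687 and 4763 CP20M with 5-FU. The tumoroid groups did not overlap, and M40 was the only line of the 6 that was not higher. Btg2 rose over both genotypes by 0.79 (SE 0.188, adjusted p = 0.0272), and within tumoroids the change was 1.19 (SE 0.266, adjusted p = 0.0582, and 0.00556 with the block). Cdkn1a encodes p21, the inhibitor of cyclin-dependent kinases through which p53 halts the cell cycle. It stood at 5363, 4701 and 5942 CP20M in vehicle colonoids and at 7405, 5170 and 10747 CP20M with 5-FU. In tumoroids the values were 4778, 5602 and 5429 CP20M in vehicle and 6201, 8648 and 6948 CP20M with 5-FU. Every line was higher with 5-FU and the tumoroid groups did not overlap, while in colonoids M40 with 5-FU lay below 2 of the vehicle libraries. The log2 fold change was 0.47 (SE 0.164), with an adjusted p of 0.139, of 0.0583 with the block and of 0.0281 with the block and without the M41 library at R4, under 1.5-fold in each. Plk2, a polo-like kinase of the stress response, was at 0.46 (SE 0.23, adjusted p = 0.346) and was higher in 6 of 6 lines. A transcript model of 273 overlapping exon bases lies on the strand opposite Cdkn1a, and as the strand setting of the counting is not stated, reads of both cannot be told apart.

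The mitotic and spindle genes differed widely between lines. Gtse1, a microtubule protein that binds p53 and limits it, was at 450, 820 and 501 CP20M in vehicle colonoids and at 1704, 1066 and 1392 CP20M with 5-FU. In tumoroids it was at 2169, 372 and 544 CP20M in vehicle and at 2787, 1378 and 1130 CP20M with 5-FU. The vehicle library of F11 was above the 5-FU libraries of M3 and M14, so that the tumoroid groups overlapped, whereas the colonoid groups did not. Its log2 fold change was 1.15 (SE 0.397, adjusted p = 0.13), and with line as a block it was called (adjusted p = 0.0157). Psrc1, which binds spindle microtubules, was at 0.61 (SE 0.209, adjusted p = 0.125, and 0.0144 with the block, where it was called), and higher in all lines but F11. Ckap2, a spindle protein, was at 0.77 (SE 0.478, adjusted p = 0.482) and lower in M40 and F11. The same lines had the highest vehicle level of the mitotic cyclin Ccnb2, 782 CP20M in M40 and 1164 CP20M in F11 against 28 to 111 CP20M in the other 4. With 5-FU Ccnb2 stood at 358 CP20M in M40, 1401 in F11 and 149 to 615 CP20M in the others. Ccnb2 does not stand for the cell cycle genes listed further below, as most of these were lower with 5-FU in F11. Mki67 went from 11896 to 8861 CP20M and Ccnb1 from 2445 to 2047 CP20M there. Others rose in F11, such as Ccna2 from 3132 to 3504 CP20M. The part of cycling cells in the values of Gtse1, Psrc1 and Ckap2 was not tested.

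Of the 7 apoptosis genes tested 0 were called with 5-FU by limma with or without the block, although all 7 were above 0 (median 0.34, range 0.08 to 0.65). At an unadjusted p under 0.05 there was 1, Trp53inp1, and edgeR called 0. Trp53inp1, a stress protein that promotes autophagy and p53 activity, led them at 0.65 (SE 0.21, adjusted p = 0.106), with higher values in 6 of 6 lines. It went from 6892, 4572 and 6054 CP20M to 12210, 7880 and 11938 CP20M in colonoids, which did not overlap. In tumoroids it went from 4918, 8933 and 8011 CP20M to 6896, 11228 and 11179 CP20M, where F11 with 5-FU lay below 2 vehicle libraries. It was called with the block and without the M41 library at R4 (adjusted p = 0.00572). The 3 genes that act at the mitochondrial membrane lay below Trp53inp1. Bax, the pore-forming Bcl-2 family member, was at 0.22 (SE 0.243, adjusted p = 0.768), Bbc3, the BH3-only protein Puma, at 0.25 (SE 0.213, adjusted p = 0.66), and Pmaip1, the BH3-only protein Noxa, at 0.38 (SE 0.375, adjusted p = 0.729). Bbc3 was higher in 4 of 6 lines and lower in the tumoroid lines F11 and M3. Bax shares 192 exon bases with another gene model on its strand, and its value is uncertain by the reads these share. Perp was at 0.38 and Ei24, a membrane protein of the endoplasmic reticulum, at 0.34, and both were higher in 6 of 6 lines. Aen was at 0.08, higher in the 3 colonoid lines and lower in the 3 tumoroid lines.

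Among death receptors and their adaptor, Tnfrsf10b, the mouse TRAIL receptor, was the most even across lines. It stood at 1351 and 1696 CP20M in vehicle in colonoid lines M40 and M1 and at 1933 and 2541 CP20M with 5-FU, while M41, the lowest in vehicle, reached 2110 CP20M, a log2 ratio of 0.91. In tumoroids it stood at 1330, 1512 and 1530 CP20M in vehicle and at 1984, 2095 and 2098 CP20M with 5-FU. The groups did not overlap in either genotype. Its log2 fold change was 0.58 (SE 0.137, adjusted p = 0.0265), which passes the test but lies just under 1.5-fold, so it was not called. Pidd1, the scaffold of the PIDDosome that activates caspase-2, was at 155, 149 and 180 CP20M in vehicle colonoids and at 671, 206 and 573 CP20M with 5-FU. In tumoroids it was at 680, 184 and 234 CP20M in vehicle and at 1003, 625 and 391 CP20M with 5-FU. The colonoid groups did not overlap, M40 changed least, and F11 was the highest tumoroid line in both conditions. Its log2 fold change was 1.15 (SE 0.368, adjusted p = 0.102), and it was called with the block (adjusted p = 0.027). Eda2r, a receptor for ectodysplasin A2, was at 0.55 (SE 0.265, adjusted p = 0.324), higher in 6 of 6 lines and with no overlap in either genotype.

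Of the DNA repair and nucleotide genes, Ercc5, the XPG endonuclease of nucleotide excision repair, rose by 0.74 (SE 0.165, adjusted p = 0.02). It was at 583, 654 and 894 CP20M in vehicle colonoids and at 1668, 1046 and 1545 CP20M with 5-FU. In tumoroids it was at 1352, 979 and 983 CP20M in vehicle and at 1735, 1754 and 1229 CP20M with 5-FU. All 6 lines were higher, the colonoid groups did not overlap, and M41 had the widest gap. Xpc, which finds damaged DNA for the same pathway, was at 0.46 (SE 0.136, adjusted p = 0.0743), and Polk, a translesion polymerase, at 0.50 (SE 0.229, adjusted p = 0.286), each higher in 6 of 6 lines. Rrm2b, the ribonucleotide reductase subunit that serves non-dividing cells, was at 0.20 (SE 0.295, adjusted p = 0.847). Ddb2, another damage sensor, was at 0.06 (SE 0.208, adjusted p = 0.951) and was higher in 3 of 6 lines.

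The stress and metabolic genes held both ends of the list. Ddit4l, an inhibitor of mTORC1, had the highest log2 fold change, 1.35 (SE 0.385, adjusted p = 0.062), and was called with the block (adjusted p = 0.00368). It went from 125, 74 and 194 CP20M to 565, 120 and 743 CP20M in colonoids. In tumoroids it went from 340, 87 and 191 CP20M to 510, 505 and 356 CP20M. The tumoroid groups did not overlap, and in colonoids M40 with 5-FU lay below the vehicle libraries of M41 and M1. Gdf15, a secreted stress hormone of the TGF-beta family that is also a target of ATF4, was the lowest at −0.57 (SE 0.459, adjusted p = 0.631). It went from 4838 to 1301 CP20M in M3 and from 3568 to 1326 CP20M in M14, and from 774 to 810 CP20M in F11. In colonoids it was at 1827, 325 and 1803 CP20M in vehicle and at 1716, 423 and 1288 CP20M with 5-FU. The value was lower in M3 and M14, and by less in M1 and M41, and the test was not passed. Zmat3, an RNA-binding regulator of splicing, was at 0.38 and higher in 6 of 6 lines, and Dcxr, a xylulose reductase, was at 0.45 and higher in 4.

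**Figure D2:**
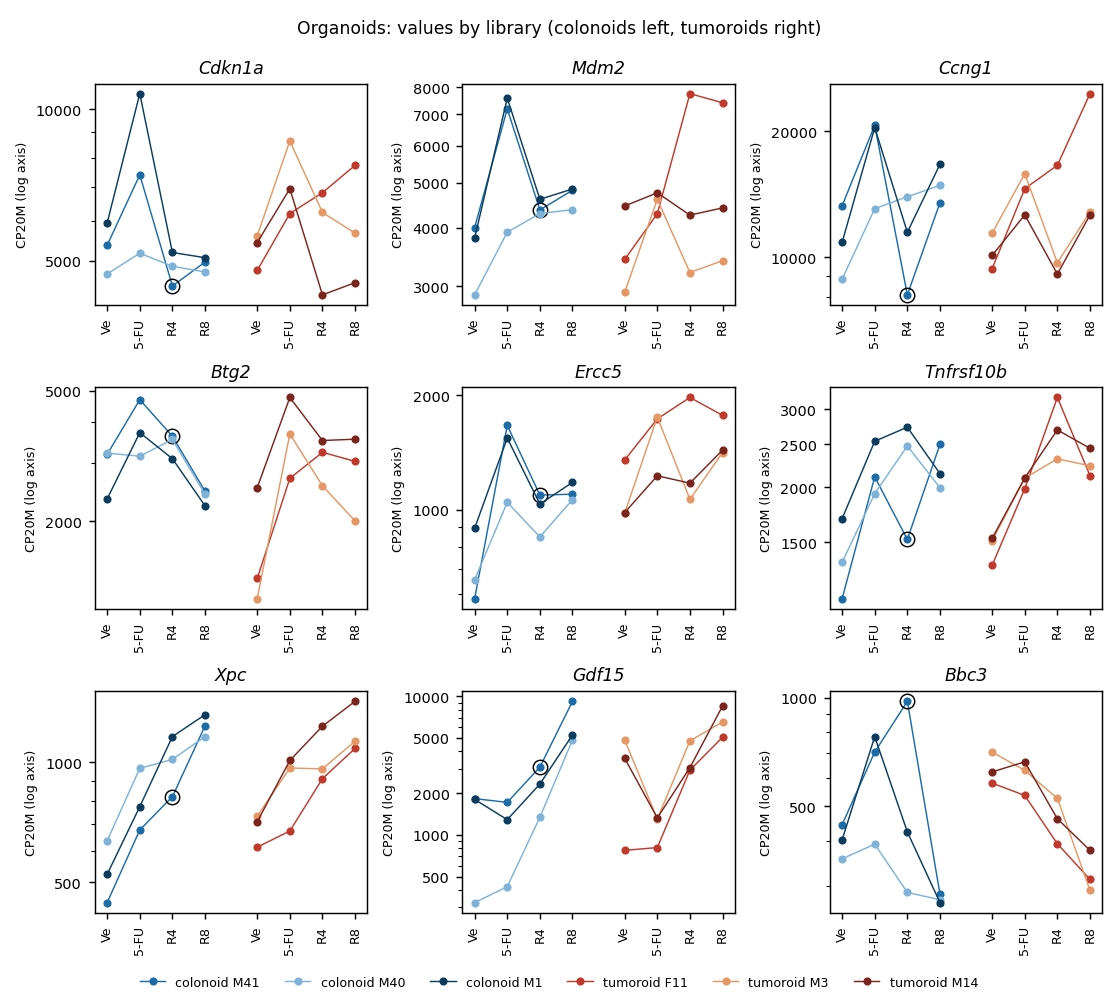
CP20M (log axis) of 9 targets in each of the 24 organoid libraries, colonoid lines in blue on the left and tumoroid lines in red to brown on the right of each panel, with a line joining the libraries of 1 mouse. The black circle marks the M41 library at R4. Tnfrsf10b separates vehicle from 5-FU in both genotypes, while Gdf15 and Xpc are highest at R8 and Bbc3 is lowest there.

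Within colonoids alone, 27 of 28 targets were above 0 with 5-FU, with a median of 0.58, and limma called 0, against 0.0432% of all genes. At an unadjusted p under 0.05 there were 13, beside 787 of all 11562 genes, and edgeR also called 0. With the block limma called 2, Ercc5 and Psrc1 (0.666% of all genes), and 9 when the M41 library at R4 was left out as well (3.49% of all genes). The 9 were Tnfrsf10b, Gtse1, Pidd1, Ercc5, Zmat3, Trp53inp1, Eda2r, Ddit4l and Psrc1. Within tumoroids 24 of 28 were above 0, with a median of 0.37, and limma called 0 (0.182% of all genes). An unadjusted p under 0.05 was reached by 4 of 28 targets and by 1167 of all 11562 genes, and edgeR called 0. With the block limma called 1, Btg2 (2.48% of all genes), and 3 without the M41 library at R4, which were Btg2, Gtse1 and Ddit4l (6.37% of all genes). All 5-FU libraries lay above all vehicle libraries for 13 of 28 targets in colonoids (9.05% of all genes) and for 8 of 28 in tumoroids (8.65% of all genes). Tnfrsf10b, Eda2r and Polk were in both sets. The difference between the genotypes in the response was tested itself, and limma called 0 of 28 and 0.0% of all genes. At an unadjusted p under 0.05 there were 2, Btg2 at 0.79 (SE 0.376) and Aen at −0.68 (SE 0.258) as tumoroids minus colonoids, and edgeR called 0. Of all 11562 genes 87 had such a p.

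Other genes of the p53 network were taken from lists written by hand. Trp53 itself was at 0.07 (adjusted p = 0.854) and Mdm4, the partner of Mdm2, at −0.07 (adjusted p = 0.941) with 5-FU. Of 15 tested genes of the p53 circuit, Cdkn2a, which encodes the Ink4a and Arf inhibitors, rose by 0.78 (SE 0.198, adjusted p = 0.0362), though edgeR did not call it, and 0 fell. Of 19 tested p53 targets outside the 30, 0 were called by limma without the block or by edgeR, with a median of 0.20 and 5 at an unadjusted p under 0.05, and with the block 2 were higher and 1 was lower. Of 20 cell cycle genes that the p21 and DREAM pathway is known to repress, limma and edgeR called 0. At an unadjusted p under 0.05 there were 0. Over both genotypes 19 were above 0, with a median of 0.55, but the lines went apart. In M40 all of these genes were lower with 5-FU. Plk1, for example, went from 1260 to 638 CP20M in M40 and from 2076 to 1688 CP20M in F11. It was higher with 5-FU in M41, M1, M3 and M14. Of 12 ATF4 targets 7 fell, with a median of −1.05, among them Chac1 at −2.59 (adjusted p = 0.00171) and Atf4 at −1.28 (adjusted p = 0.00285). The 10 tested targets with an exact half-site in the RefSeq window had a median of 0.53 with 5-FU, and the 10 without a half-site had a median of 0.52.

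The next comparisons are those of R8 with vehicle. These comparisons use the same vehicle libraries as those with 5-FU. Over both genotypes 6 of 28 targets were called (21.4%), against 17.7% of all genes. Gdf15, Xpc, Rrm2b, Tnfrsf10b and Polk rose and Bbc3 fell. The fitted change was above 0 for 24 of 28, with a median of 0.42, against −0.05 for all genes, of which 45.2% were above 0. With line as a block 9 were called, adding Gtse1, Pmaip1 and Ddit4l as higher (20.9% of all genes). Among macrophage markers Cd68, a lysosomal protein, rose by 2.83 (adjusted p = 0.000156), Csf1r was at 0.32, and Adgre1 and Lyz2 were at 0 in all R8 libraries. The part of Cd68-expressing cells was not tested. Without line M3, or without line M14, the calls were 3, Gdf15, Xpc and Tnfrsf10b. Over the lines left out the adjusted p reached 0.171 for Polk, 0.198 for Rrm2b and 0.108 for Bbc3, and Tnfrsf10b lay under 1.5-fold without M41 (0.54).

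Gdf15 rose by 2.00 (SE 0.459, adjusted p = 0.00312), the most of the 28. It reached 9192, 4831 and 5261 CP20M at R8 in colonoid lines M41, M40 and M1 and 5060, 6528 and 8507 CP20M in tumoroid lines F11, M3 and M14. These values were above all vehicle values of the same genotype. Xpc rose by 1.00 (SE 0.136, adjusted p = 3.19e-05), from 444, 635 and 523 CP20M to 1235, 1161 and 1318 CP20M in colonoids. In tumoroids it went from 612, 732 and 709 CP20M to 1084, 1131 and 1424 CP20M, and neither genotype overlapped with vehicle. Rrm2b rose by 0.82 (SE 0.295, adjusted p = 0.0466), Tnfrsf10b by 0.66 (SE 0.137, adjusted p = 0.00158) and Polk by 0.65 (SE 0.229, adjusted p = 0.0426), each in 6 of 6 lines. Rrm2b and Ei24 overlap antisense gene models and Ddb2 the coding gene Acp2 on the other strand, whose reads cannot be told apart without strand.

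Bbc3 fell by 0.71 (SE 0.213, adjusted p = 0.0186), to 285, 275 and 270 CP20M in colonoids from 444, 357 and 403 CP20M in vehicle. In tumoroids it went from 579, 706 and 622 CP20M to 313, 292 and 377 CP20M, again with no overlap. Under TMM scaling the adjusted p of Bbc3 was 0.0528. Other well known targets were not called at R8. Pmaip1 was at 0.94 (SE 0.375, adjusted p = 0.0714), higher in 6 of 6 lines, and was called with the block or without the M41 library at R4. Mdm2 was at 0.42 (SE 0.212, adjusted p = 0.155), higher in 5 of 6 lines. Near 0 were Cdkn1a at 0.02 (SE 0.164, adjusted p = 0.952), Phlda3 at 0.07 (SE 0.265, adjusted p = 0.891) and Bax at −0.12 (SE 0.243, adjusted p = 0.768). Ccng1 was at 0.55 (adjusted p = 0.0452), Ercc5 at 0.57 (adjusted p = 0.0152) and Zmat3 at 0.49 (adjusted p = 0.0174), which passed the test under 1.5-fold, and edgeR called Ccng1 and Ercc5. All R8 libraries were above all vehicle libraries for 11 of 28 in colonoids (19.3% of all genes). In all 6 lines 12 of 28 were higher at R8 than in vehicle (16.6% of all genes), and Bbc3 was lower in all 6 (17.8% of all genes). The response to R8 differed between genotypes for 0 of 28 by limma or edgeR (0.0% of all genes), with 1 at an unadjusted p under 0.05, Btg2 at 1.1 (SE 0.376). Of all 11562 genes 441 had such a p.

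**Figure D3:**
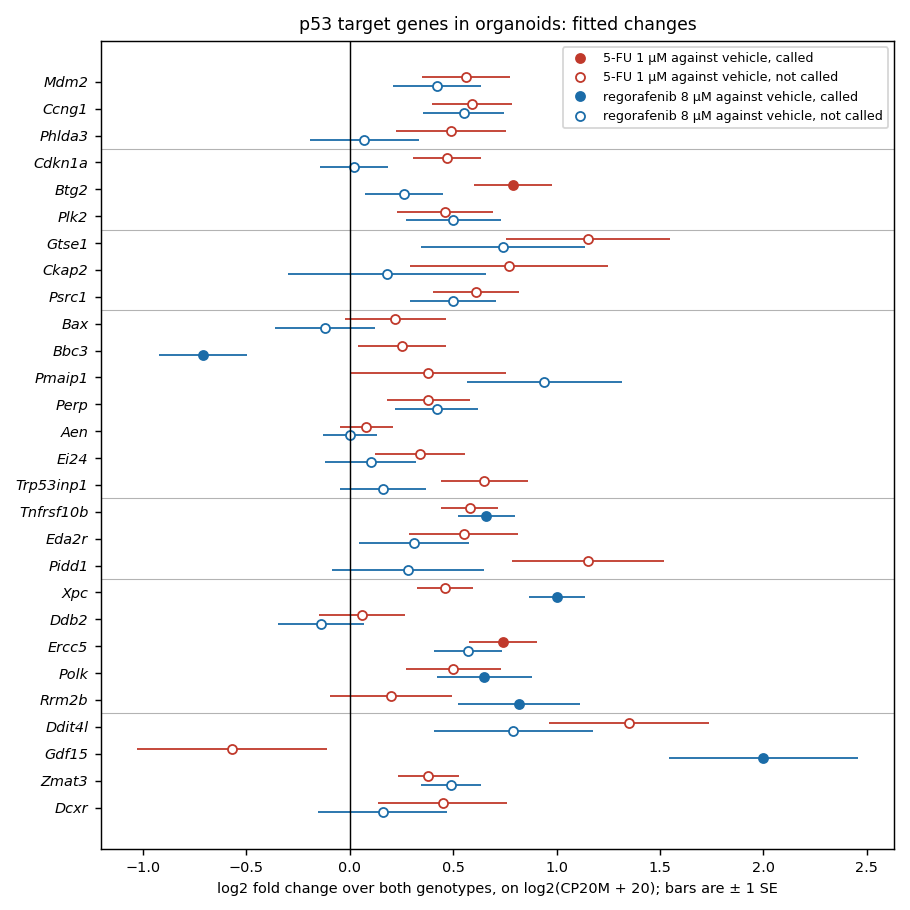
Log2 fold change over both genotypes on the log2(CP20M + 20) scale, with bars of 1 SE from limma, for 5-FU (red) and R8 (blue) against the shared vehicle libraries, 6 libraries a condition. Filled points are called. With 5-FU, Btg2 at 0.79 and Ercc5 at 0.74 are filled, and with R8 Gdf15 at 2.00 lies furthest to the right and Bbc3 at −0.71 furthest to the left.

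A direct comparison of 5-FU with R8 called 2 of 28 targets, against 8.78% of all genes. Gdf15 was lower with 5-FU by a log2 difference of −2.58 (SE 0.459, adjusted p = 0.00115), and Bbc3 was higher by 0.96 (SE 0.213, adjusted p = 0.00596). Xpc was lower with 5-FU at −0.54 (SE 0.136, adjusted p = 0.0133), under 1.5-fold. The difference in Cdkn1a was 0.45 (SE 0.164, adjusted p = 0.0811, and 0.0374 with the block, under 1.5-fold in both). With the block 3 were called, Pidd1 joining at 0.87 (adjusted p = 0.0499, 12.5% of all genes).

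At R4, 3 of 28 targets rose over both genotypes, Tnfrsf10b by 0.78 (SE 0.137, adjusted p = 0.000678), Xpc by 0.73 (SE 0.136, adjusted p = 0.00107) and Btg2 by 0.60 (SE 0.188, adjusted p = 0.0281), against 14.9% of all genes. The median of all genes was shifted to −0.16 in this comparison, against a median of 0.11 for the targets. Without the M41 library of 512600 reads these medians were −0.06 and 0.22. The calls without it were again 3 (16.1% of all genes), but with Rrm2b at 0.59 (adjusted p = 0.00572) in place of Btg2, which lay just under 1.5-fold at 0.58 (adjusted p = 0.0356). With the block 5 were called (18.4% of all genes), with Gdf15 as higher and Dcxr as lower in addition. With the block and without the M41 library there were also 5, all higher (17.7% of all genes), with Rrm2b called and Dcxr, at −0.54, under 1.5-fold. The difference between the doses was called for 0 of 28 (0.848% of all genes). There were 6 at an unadjusted p under 0.05, beside 2007 of all 11562 genes, and edgeR called 0. With the block 3 were called (3.35% of all genes), Gdf15 at 1.21 and Dcxr at 0.78 as higher at R8 and Bbc3 at −0.63 as lower. The call of Bbc3 rests on the M41 library at R4, where it stood at 976 CP20M, and without that library Bbc3 was at −0.43 and 2 were called, Gdf15 and Dcxr (3.44% of all genes).

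In the p53 circuit, Cdkn2a rose at R8 by 1.70 (SE 0.198, adjusted p = 6.53e-06). Trp53bp1, which binds damaged chromatin, rose by 0.63 and Hipk2, a kinase of p53, by 0.78. Hipk2 was higher in M41, M40, F11, M3 and M14, by the most in M41 (1515 to 6101 CP20M). In M1 it was slightly lower (2783 to 2690 CP20M). Ppm1d, a phosphatase that switches p53 signalling off, fell by 0.67. Trp53 was at −0.28 (adjusted p = 0.0669, and 0.0251 with the block). Among the 19 other p53 targets 2 rose, Gadd45a, a growth arrest gene, by 1.20 (adjusted p = 0.00551) and Sat1, a polyamine acetyltransferase, by 0.92 (adjusted p = 0.0158). Tyms, which encodes thymidylate synthase, fell by 1.15 and E2f1 rose by 1.20 among the 20 cell cycle genes. Both counts, 2 of 19 and 2 of 20, are shares below the 17.7% of all genes called. Of the 12 ATF4 targets 7 fell, with a median of −0.87.

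In fibroblasts, R10 was compared with vehicle in 3 and 4 lines. It called 6 of 30 targets, against 7.33% of all genes, and the median of the targets was 0.35 against −0.04 for all genes. Fas, Gdf15, Dcxr, Psrc1 and Ercc5 rose and Ckap2 fell. With line as a block 10 were called (13.8% of all genes), with Perp, Pmaip1 and Pidd1 as higher and Plk2 as lower in addition. Without line M3(2) the calls were 3, Fas, Psrc1 and Ckap2. Over the lines left out the adjusted p reached 0.321 for Gdf15, 0.0503 for Dcxr and 0.0595 for Ckap2, the last without M1(2). Smooth muscle markers summed to 11012 to 14961 CP20M at R10 against 2438 to 7355 CP20M in vehicle, and macrophage markers to 582 to 611 CP20M against 1045 to 5313 CP20M. Endothelial markers summed to 1157 to 4570 CP20M at R10 against 845 to 7043 CP20M. Their part in these results was not tested.

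Fas rose by 1.24 (SE 0.171, adjusted p = 0.000222). It stood at 249, 283, 223 and 231 CP20M in vehicle in lines M3, M3(2), M1(2) and M11 and at 660, 769 and 440 CP20M at R10 in the first 3 of them. Gdf15 rose by 1.37 (SE 0.439, adjusted p = 0.0473), from 321, 1022, 583 and 677 CP20M to 1174, 1753 and 1923 CP20M. The groups did not overlap for either gene, and M3(2) had the highest vehicle level of both. Psrc1 rose by 0.70 (SE 0.116, adjusted p = 0.000989), and stood at 753 to 855 CP20M over the vehicle libraries, at 1374 and 1487 CP20M at R10 in M3 and M3(2) and lower, but above vehicle, in M1(2). Dcxr rose by 0.77 (SE 0.135, adjusted p = 0.00155) and Ercc5 by 0.67 (SE 0.1, adjusted p = 0.00048), and in both R10 lay above vehicle in every library. Ckap2 fell by 1.1 (SE 0.212, adjusted p = 0.0027), from 461 to 706 CP20M to 213 to 247 CP20M.

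Cdkn1a passed the test in fibroblasts under 1.5-fold, at 0.54 (SE 0.162, adjusted p = 0.0338), and edgeR called it at 0.61 (adjusted p = 0.0202). It stood at 13932 CP20M in M3 and 14252 CP20M in M3(2) at R10, against 9413 CP20M in M1(2) and 7910 to 8969 CP20M in vehicle. The R10 value of M1(2) was thus close to vehicle. The median change of the 30 targets against the vehicle of the same line was 0.44 in M3, 0.46 in M3(2) and 0.09 in M1(2). Perp was at 1.60 (SE 0.778, adjusted p = 0.194) and, with the block, at 1.17 (SE 0.191, adjusted p = 0.000126), and its vehicle level ran from 40 CP20M in M11 to 292 CP20M in M3(2). Mdm2, Bax, Bbc3, Aen and Rrm2b lay between −0.08 and 0.08 in the fit without a block, each with an adjusted p of at least 0.471. Against the vehicle of the same line, Mdm2 was at 0.25 in M3, 0.14 in M3(2) and −0.39 in M1(2). By the same measure Bbc3 was at 0.05, 0.12 and 0.08 and Bax at −0.12, −0.02 and −0.19. All R10 libraries were above all vehicle libraries for 12 of 30 targets (12.2% of all genes).

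**Figure D4:**
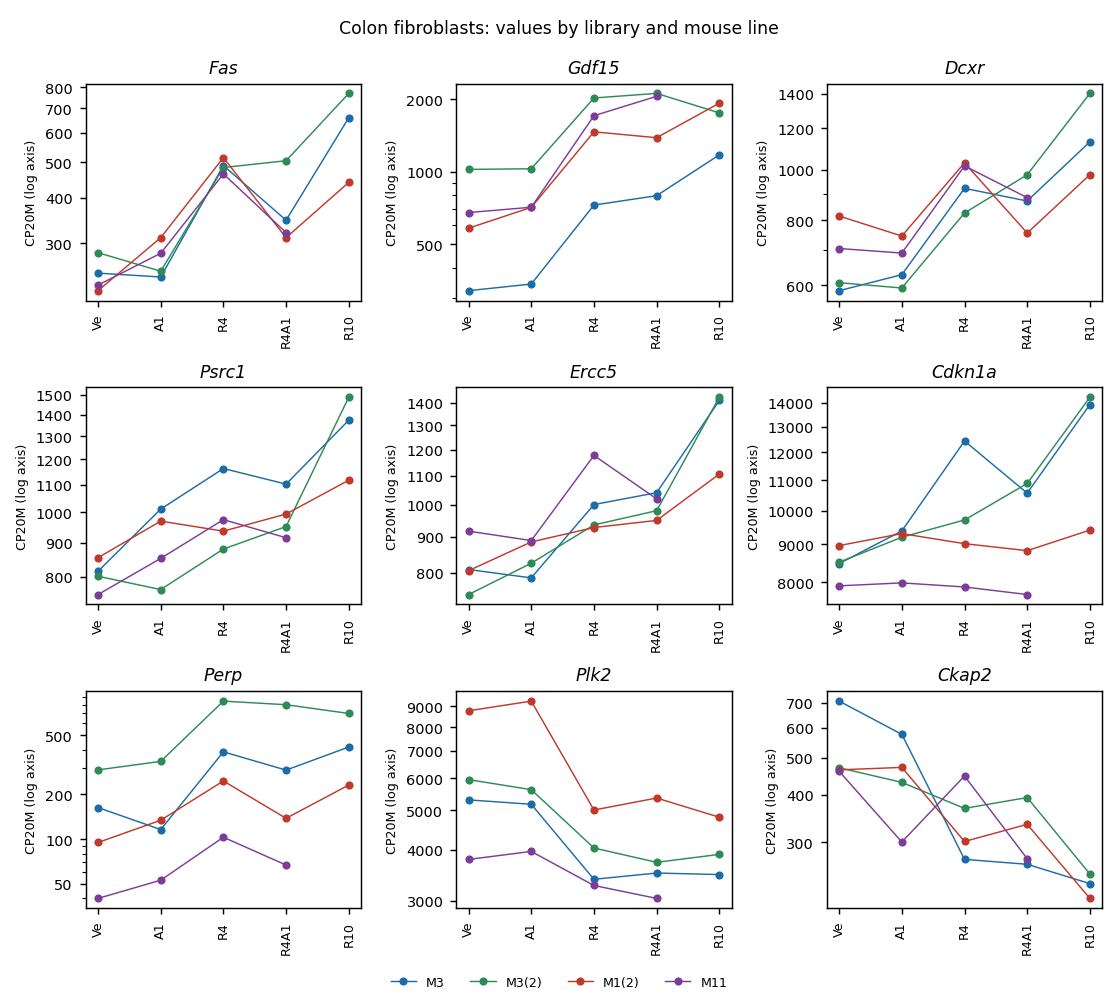
CP20M (log axis) of 9 targets in the 19 fibroblast libraries by treatment, with a line joining the libraries of 1 mouse line (M11 has no R10 library). Fas lies at 440 to 769 at R10 and at 223 to 283 in vehicle, and Ckap2 at 213 to 247 and 461 to 706. Perp and Plk2 differ in height between the lines in every treatment.

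At R4 Fas was the 1 target of 30 called in fibroblasts, at 0.93 (SE 0.159, adjusted p = 0.0055), against 1.02% of all genes. Smooth muscle markers summed to 7181 to 16835 CP20M at R4 and 4408 to 10724 CP20M with the combination, against 2438 to 7355 CP20M in vehicle. Endothelial markers summed to 1313 to 20026 CP20M at R4 and 1452 to 12257 CP20M with the combination, against 845 to 7043 CP20M in vehicle, and their member Kdr was higher at R4 in each of the 4 lines. The part of these cells in the values of Fas was not tested. With the block 3 were called, with Perp at 1.22 and Gdf15 at 1.18 in addition (7.22% of all genes). With autogramin-2 alone limma called 0 of 30 targets and 0.0% of all genes. Of the targets 0 had an unadjusted p under 0.05, beside 120 of all 11032 genes, and edgeR called 0. With regorafenib and autogramin-2 together limma called 0 of 30 (1.66% of all genes), and Fas was the 1 call by edgeR. An unadjusted p under 0.05 was reached by 8 of 30 targets and by 1937 of all 11032 genes. With the block 3 were called, Gdf15 at 1.27 and Perp as higher and Ckap2 at −0.70 as lower (6.99% of all genes). For the combination against R4 limma called 0 of 30 (0.00906% of all genes), and edgeR called 0. An unadjusted p under 0.05 was reached by 2 of 30 targets and by 622 of all 11032 genes. Fas differed by −0.40 in that comparison (SE 0.159, adjusted p = 0.87).

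Trp53 fell at R10 in fibroblasts by 0.59 (SE 0.161, adjusted p = 0.021), and Mdm4 was at 0.21 (adjusted p = 0.232). Of the 18 tested cell cycle genes of the DREAM list 16 fell, with a median of −1.55, among them Ccnb1 at −2.11 (adjusted p = 0.000955) and Plk1 at −2.02 (adjusted p = 0.00138). In the same libraries the spindle genes of the 30 moved apart, as Ckap2 fell while Psrc1 rose and Gtse1 was at 0.35 (adjusted p = 0.0343, under 1.5-fold). Among the 19 other p53 targets 2 rose, a share near the 7.33% of all genes called, Zfp365 by 0.63 and Tap1, a peptide transporter of antigen presentation, by 0.65.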

How the data were processed

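RNA of 24 organoid and 19 fibroblast libraries was sequenced. The authors trimmed reads with Trimmomatic 0.36, aligned them with STAR 2.5.3a to GRCm38 and counted them per gene with HTSeq 0.9.1 (versions as in the submitters' processing notes). The deposited signal values (CP20M) are counts that the authors scaled to 20000000 per library and rounded up. The strand setting of the counting is not given in the sources used here. Whole reads were recovered from the step between values (at least 99.78% of low values were whole).

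Libraries were grouped by their labels. For the 3 tumoroid libraries with 5-FU, whose titles read colonoid, the genotype label and library name decided. Each table was fitted on log2(CP20M + 20) with a coefficient for every group by limma 3.58.1 (eBayes with trend; R 4.3.3), and Benjamini-Hochberg adjustment covered all genes tested. edgeR 4.0.16 (quasi-likelihood) on recovered reads, the line as a block, TMM scaling, a pseudocount of 4, no filter, fewer libraries and each line left out were alternatives. Scripts were tested on simulated data. The line pairs the libraries by mouse: after subtraction of group means, same-line libraries had a mean correlation over genes of 0.5 in organoids (34 of 36 pairs over 0.1) and 0.72 in fibroblasts (36 of 36), against −0.25 and −0.23 between other lines. The members, the lists and the tests were chosen with earlier results of these data known. All 30 members were accounted for. Those called with 5-FU, in any setting given, were printed per library with Cdkn1a and Mdm2, except Psrc1, Eda2r and Zmat3. These and most other members were given by fold change, and genes of other lists where their p was smallest or as core genes of the circuit. Ccnb2 values, the F11 values of Mki67, Ccnb1 and Ccna2, and the values of Plk1 and Hipk2 by organoid line were chosen after they were seen.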

Additional observations from a re-analysis of the deposited data

Results flagged for a closer look

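In groups of 4 fibroblast lines, 120 checks of single members were made for a library far from the other 3, and 9 were past Dixon's critical value, which chance passes in about 1 of 20 groups. In vehicle, Ckap2 was highest in line M3 at 706 CP20M, with the next at 471. With autogramin-2, line M11 was lowest for Cdkn1a at 7983 CP20M (next 9206), for Btg2 at 1014 CP20M (next 2770) and for Aen at 1663 CP20M (next 1798), and highest for Trp53inp1 at 5518 CP20M (next 2557). Polk was highest in M3 in that group at 1269 CP20M (next 1193). With both drugs, line M11 was highest for Bbc3 at 442 CP20M (next 273), for Trp53inp1 at 4040 CP20M (next 2258) and for Pidd1 at 366 CP20M (next 295). Line M11 gave 7 of the 9. In vehicle M11 was also the lowest line for Btg2 at 1172 CP20M and Cdkn1a at 7910 CP20M. It was the highest there for Trp53inp1 at 4973, Bbc3 at 443 and Pidd1 at 452 CP20M. For Aen, M11 stood at 1739 CP20M in vehicle and M3 was lower at 1719 CP20M.

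In 2 cases every colonoid line moved one way and every tumoroid line the other. The response of Aen to 5-FU differed by −0.68 (tumoroids minus colonoids, unadjusted p = 0.0156, adjusted p = 1.0 in limma). The response of Btg2 to R8 differed by 1.1 (unadjusted p = 0.00876, adjusted p = 1.0, and 0.252 with the block). Neither difference passed the test.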

How the results depend on the processing

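The number of members called with 5-FU over both genotypes was 2. It was 6 with the replicate block, 4 with edgeR, 0 with no filter, 1 when only the libraries compared were fitted, 6 without the shallowest library, 8 with that and the block, 0 without the vehicle library of M41, and 0 to 2 when each line was left out (0 without M41, M1 or M3). In colonoids the number was 0, with 2 under the block, 9 under the block without the shallowest library and 0 to 0 over lines left out. In tumoroids it was 0, with 1 under the block, 1 without the shallowest library, 3 with both and 0 to 1 over lines left out (1 without M41). At R8 it was 6, with 3 to 6 over lines left out (3 without M3 or M14), and at R10 in fibroblasts 6, with 10 under the block and 3 to 6 over lines left out (3 without M3(2)). The settings with the shallowest library left out together with the block, and without the vehicle library of M41, were chosen after seeing the data. Of 174 values of the 14 called genes and comparisons under alternatives, 133 stayed called, 41 were no longer called and 0 reversed. Xpc and Gdf15 at R8 and Fas and Psrc1 at R10 stayed called under all alternatives run. The causes were not tested. In the library of 512600 reads, values under 39.0 CP20M cannot be told from 0, and 3 lines a group limit what was detectable.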
